A study of Mus musculus with 21 samples.

Results

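The miR-30 and miR-384 family is a group of microRNAs (miRNAs) that share a seed, the bases near the 5′ end of the mature strand through which a miRNA pairs with its target mRNAs. The members were taken by name as the 5p strands miR-30a-5p, miR-30b-5p, miR-30c-5p, miR-30d-5p, miR-30e-5p and miR-384-5p, which makes 6 of the 1909 miRNA names listed for virgin mice. For mice of the breeding trial, 4 of the 1841 names listed were used, and miR-30b-5p and miR-30c-5p were not analysed here in that cohort. Small RNAs of the pituitary were sequenced in adult female C57BL/6J mice, which the paper describes as staged for proestrus, with 21 libraries in all. *Zeb1* encodes a repressor of epithelial genes, and its mRNA carries sites for miR-200 miRNAs, which it represses in turn. The genotypes were wild type (WT), Zeb1_200H, heterozygous for a *Zeb1* allele that miR-200a/b cannot repress, and Zeb1_200M, homozygous for it in every cell.

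The virgin cohort was 8 to 12 weeks old and had 11 libraries, with 3 from WT (replicates 1, 2 and 4), 4 from Zeb1_200H and 4 from Zeb1_200M. The breeding trial cohort was 28 to 36 weeks old and had 10 libraries, with 4 from WT, 3 from Zeb1_200H (replicates 1, 3 and 4) and 3 from Zeb1_200M. Age, breeding history, RNA input, added carrier RNA and spike-ins, sequencer, matched read length, miRNA list and, by the sample labels, adapters differ between the cohorts and cannot be told apart, so each cohort was analysed on its own.

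The miR-30 genes are transcribed as pairs of hairpins, and the 5p strand is the one mostly loaded into Argonaute. They are abundant in many differentiated tissues, and in epithelia they are known for repression of mesenchymal regulators such as *Snai1*. MiR-384-5p carries the same seed on an otherwise different sequence and is known mostly from neurons, where it acts in synaptic plasticity. Because the seed is shared, members compete for many of the same target sites, so the summed level and each member's share of it both describe the family.

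The sequence table of RefSeq miRNAs (build GRCm38.p6) matched 4 of the 6 members, and miR-30b-5p and miR-30d-5p were not matched. Their mature sequences are shown because they tell what the members share and where they part, with bases 2 to 8, the seed, in capitals.
miR-30a-5p: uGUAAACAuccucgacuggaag
miR-30e-5p: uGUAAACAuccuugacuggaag
miR-30c-5p: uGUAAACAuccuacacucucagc
miR-384-5p: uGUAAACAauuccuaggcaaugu
The 4 sequences were identical over their first 8 bases. Counted from 1 at the 5′ end, miR-30a-5p and miR-30e-5p differed at 1 of 22 positions, as C13U. From miR-30a-5p to miR-30c-5p, 5 of 22 positions differed, as C13A, G14C, G18C, G19U and A20C. MiR-384-5p differed from miR-30a-5p at 10 of 22 positions, from miR-30e-5p at 11 of 22 and from miR-30c-5p at 12 of 23, all of them beyond the seed. Reads were assigned by an exact match of their first 19 nt in the virgin cohort and 18 nt in the breeding trial cohort. None of the 6 pairs of these 4 members had the same first 19 or 18 nt, so such a match separates these 4. MiR-30b-5p and miR-30d-5p, without a sequence here, were not compared. Whether the match separates them from the other members was therefore not tested. Of the 1679 mature names in the sequence table, 4 had the seed GUAAACA, all of them members. MiR-30f, from the strand opposite to the miR-30e hairpin, starts 1 base later on the shared motif, so its bases 2 to 8 read UAAACAU. It had 0 counts in every library, where 3 counts would have been 0.278 to 0.786 CPM (counts per 1000000 counted miRNA reads) in virgin libraries and 15.7 to 50 CPM in those of the breeding trial.

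In the annotation of GRCm38, the hairpins lie on 4 chromosomes. *Mir30a* (ENSMUSG00000065405) spans 23272269 to 23272339 and *Mir30c-2* (ENSMUSG00000065567) spans 23291701 to 23291784, both on the plus strand of chromosome 1 with 19361 bp between them, and *Mir30c-2* falls in an exon of the lincRNA *Gm27028*. On the minus strand of chromosome 4, *Mir30c-1* (ENSMUSG00000065490) spans 120769534 to 120769622 and *Mir30e* (ENSMUSG00000065409) spans 120772606 to 120772697, 2983 bp apart within an *Nfyc* intron, *Nfyc* being protein-coding. On the minus strand of chromosome 15, *Mir30b* (ENSMUSG00000065476) spans 68337415 to 68337510 and *Mir30d* (ENSMUSG00000065437) spans 68341208 to 68341289, 3697 bp apart. *Mir30b* overlaps an exon of the processed transcript *Gm26621*, and *Mir30d* overlaps an exon of the lincRNA *Gm20732*. *Mir384* (ENSMUSG00000065499) lies on the minus strand of chromosome X, from 105344282 to 105344369, outside any other annotated gene. *Mir325* (ENSMUSG00000065425), from 105379082 to 105379179 on the same strand, lies 34712 bp away, with 0 miRNA genes between them. MiR-30c-5p is made from both *Mir30c-1* and *Mir30c-2*, whose mature 5p strands are identical, so its counts cannot be divided between chromosomes 1 and 4.

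A level in CPM is the raw count over the library's total of counted miRNA reads. Fold changes come instead from a fit across all miRNAs in edgeR that scales libraries by TMM factors, which correct the totals for differences in composition. An adjusted p below 0.05 over all miRNAs tested is the threshold, and a miRNA past it is called changed. On totals alone, the median of all miRNAs moved by 0.34 (Zeb1_200M against WT) and 0.29 (Zeb1_200H against WT) on the log2 scale in the virgin cohort, and by 0.24 and 0.18 in the breeding trial cohort. Unchanged miRNAs therefore look higher in mutant than in WT pituitary by CPM, and directions below are those of the TMM fit unless CPM is named.

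Virgin WT replicate 1 stood apart from the other libraries. It held 3816917 counted reads, against 8502878 to 10806313 in the other 10 virgin libraries, its TMM factor was 0.616 against 0.943 to 1.12, and 36.9% of its reads belonged to its top 3 miRNAs, against 24.5% to 28.1%. Fold changes of the members from virgin WT are therefore given with and without it. Calls and medians of the cell type lists and the test between cohorts are given with it only. The shifts of the virgin median on totals alone, too, are given with it only, and its low TMM factor adds to them. Breeding trial libraries held 60037 to 191650 counted reads.

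In virgin WT replicates 1, 2 and 4, the 6 members summed to 26520, 46240 and 48350 CPM, a mean of 4.04% of counted reads. In virgin Zeb1_200H they took 4.75% on average (4.61% to 4.84%), and in virgin Zeb1_200M 4.87% (4.79% to 5.03%). Replicate 1 of WT was thus the 1 low library of 11. After TMM scaling the sums were 47150 ± 3519 (SD, n = 3) in WT, 44970 ± 1771 (SD, n = 4) in Zeb1_200H and 44630 ± 1220 (SD, n = 4) in Zeb1_200M, as TMM-scaled CPM. WT replicate 1 was at 43080 TMM-scaled CPM and replicates 2 and 4 at 49030 and 49320, so without replicate 1 all 8 mutant libraries (42490 to 46680) were below WT, and with it their range included a WT library.

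MiR-30c-5p was the most abundant member in virgin pituitary, with 10710 ± 4713 CPM in WT (SD, n = 3), 13140 ± 422.4 in Zeb1_200H (SD, n = 4) and 14270 ± 628.6 in Zeb1_200M (SD, n = 4). In the mutants miR-30e-5p followed, at 10540 ± 526.2 CPM in Zeb1_200H and 10540 ± 263.4 in Zeb1_200M, and its ranges did not overlap those of miR-30c-5p above it or miR-30d-5p below it. MiR-30d-5p (8139 ± 300.2 CPM) and miR-30b-5p (7698 ± 490.0) overlapped in Zeb1_200H, where miR-30d-5p was higher in 3 of 4 libraries. In Zeb1_200M, miR-30b-5p (7527 ± 312.9) and miR-30a-5p (7054 ± 230.0) overlapped, and miR-30b-5p was higher in 3 of 4 libraries. MiR-384-5p came last in all 11 libraries, with no overlap with the member above it. Among all miRNAs of the mutant libraries, miR-30c-5p ranked 15th or 16th and miR-384-5p 94th to 107th.

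As shares of the members' summed counts, virgin WT had 25.6 ± 4.89% miR-30c-5p, 21.8 ± 1.74% miR-30e-5p, 21 ± 5.62% miR-30d-5p, 16.3 ± 0.904% miR-30b-5p, 13.7 ± 1.45% miR-30a-5p and 1.53 ± 0.349% miR-384-5p (SD, n = 3). The wide spreads came from replicate 1. There miR-30d-5p led with 27.5% (95% Wilson interval 27.2% to 27.8%) and miR-30c-5p had 19.9% (19.7% to 20.2%), whereas replicates 2 and 4 had 17.6% and 18% for miR-30d-5p and 28.3% and 28.4% for miR-30c-5p. The intervals cover counting error only. In the 8 mutant libraries miR-30c-5p had 26.4% to 30.2% and miR-30d-5p 15.7% to 17.6%, so for miR-30c-5p WT replicates 2 and 4 lay within the range of the mutants, for miR-30d-5p within or just above it, and replicate 1 was outside it for both. For miR-30a-5p (12.7% and 13.1% in WT replicates 2 and 4, 13.9% to 14.9% in the mutants) and miR-384-5p these WT libraries, too, were outside the range of the mutants.

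**Figure D1:**
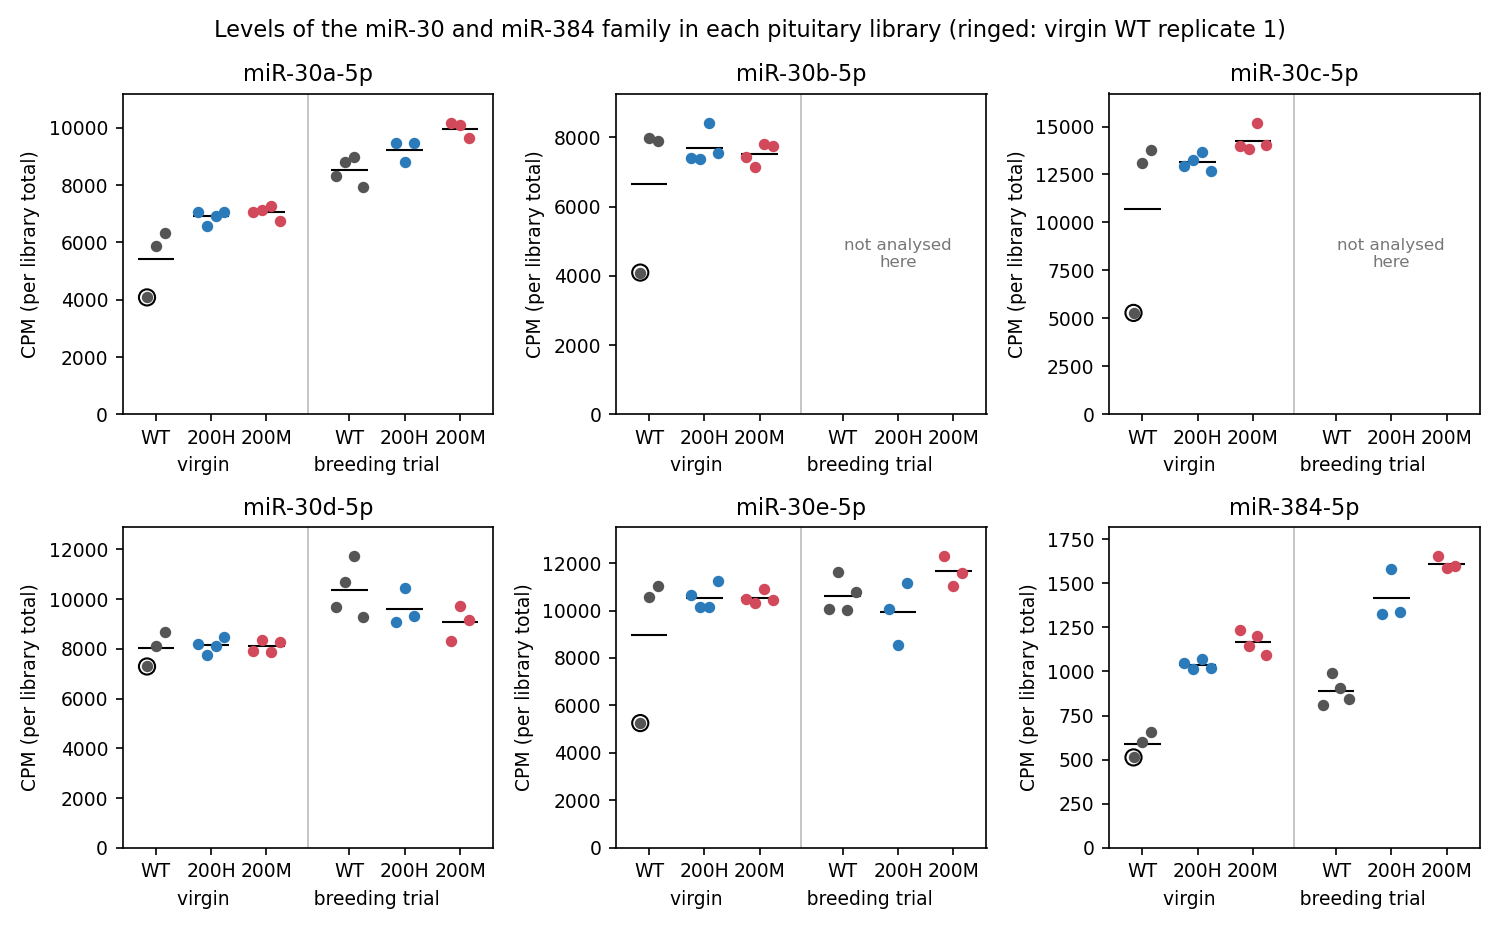
Each point is the CPM of a member in 1 library (vertical axes, per library total), by genotype and cohort, with a bar at the group mean and virgin WT replicate 1 ringed. MiR-384-5p was lower in each WT library than in each mutant library of its cohort, while miR-30b-5p, miR-30c-5p and miR-30e-5p of the virgin cohort were low in the ringed library alone.

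In the breeding trial cohort, the 4 members analysed took 3.04% of counted reads in WT (2.89% to 3.21%), 3.02% in Zeb1_200H (2.94% to 3.13%) and 3.23% in Zeb1_200M (3.20% to 3.24%). After TMM scaling WT and Zeb1_200M changed places, with sums of 31300 to 34490 TMM-scaled CPM in WT above the 28330 to 29690 of Zeb1_200H and the 29400 to 30480 of Zeb1_200M, without overlap. MiR-30e-5p had the highest mean in each genotype, at 10620 ± 761.8 CPM in WT (SD, n = 4), 9940 ± 1314 in Zeb1_200H (SD, n = 3) and 11650 ± 620.0 in Zeb1_200M (SD, n = 3). In WT and Zeb1_200H it overlapped miR-30d-5p, which it exceeded in 3 of 4 and 2 of 3 libraries. The order of the next members differed between genotypes. MiR-30d-5p lay above miR-30a-5p in 4 of 4 WT libraries, without overlap, but below it in 3 of 3 Zeb1_200M libraries, where their ranges overlapped.

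MiR-384-5p was the member with the largest difference from WT in every comparison with WT. In virgin mice its level was 512.7, 601.7 and 657.0 CPM in WT replicates 1, 2 and 4. It was 1048, 1012, 1072 and 1020 CPM in Zeb1_200H replicates 1 to 4, and 1238, 1142, 1201 and 1095 CPM in Zeb1_200M replicates 1 to 4. All 8 mutant libraries were above all 3 WT libraries, and the Zeb1_200M libraries were above those of Zeb1_200H. Breeding trial WT replicates 1 to 4 had 808.8, 991.8, 903.8 and 845.3 CPM, from 76 to 162 counts. Zeb1_200H replicates 1, 3 and 4 had 1327, 1582 and 1340 CPM, and Zeb1_200M replicates 1 to 3 had 1654, 1586 and 1596 CPM. The 6 mutant libraries were again above the 4 WT libraries. The difference holds within the family too, where it needs no scaling. MiR-384-5p was 1.30% to 1.93% of the members' counts in virgin WT, 2.13% to 2.22% in Zeb1_200H and 2.26% to 2.57% in Zeb1_200M, and 2.80% to 3.09%, 4.28% to 5.39% and 4.89% to 5.10% in the breeding trial cohort, whose shares rest on 4 members. The widest 95% Wilson interval of these shares, in breeding trial Zeb1_200H replicate 3, ran from 4.43% to 6.54%.

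In the fit of the breeding trial cohort, miR-384-5p was higher in Zeb1_200M than in WT by a log2 fold change of 0.64 (SE 0.13, adjusted p 0.000356), a 1.55-fold difference. MiR-30d-5p was lower, with a log2 fold change of -0.42 (SE 0.10, adjusted p 0.00189), or 1.33-fold. These 2 of the 4 members were called, in a comparison in which 35.9% of all 276 miRNAs tested were, and the others were miR-30a-5p at -0.0012 (SE 0.09) and miR-30e-5p at -0.10 (SE 0.09). The 4 members had a median log2 fold change of -0.05, beside 0.0014 over all miRNAs tested. The call of miR-384-5p held under all 14 alternatives, with values from 0.60 to 0.87. For miR-30d-5p it held under 13 of 14, and on library totals alone the value was -0.18 (adjusted p 0.127). On totals alone miR-30a-5p, too, was called, at 0.23 (adjusted p 0.033), and miR-30e-5p changed sign to 0.13 without a call. These values lie near the shift of 0.24 of the median of all miRNAs under that scaling, and miR-30d-5p lies below it.

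Read by library, the fall of miR-30d-5p was smaller than the rise of miR-384-5p. Its level was 9680, 10710, 11730 and 9283 CPM in WT replicates 1 to 4, 9072, 10430 and 9320 CPM in Zeb1_200H replicates 1, 3 and 4, and 8316, 9719 and 9152 CPM in Zeb1_200M replicates 1 to 3. By CPM the ranges of Zeb1_200M and WT overlapped. After TMM scaling they did not, at 7764 to 9130 against 10390 to 12790 TMM-scaled CPM. As a share of the 4 members it was 25.6% to 30% in Zeb1_200M, below the 32.2% to 37.1% of WT, while Zeb1_200H, at 29.8% to 35.5%, overlapped WT.

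Between Zeb1_200H and WT of the breeding trial cohort, 1 of the 4 members was called, beside 12.0% of 267 miRNAs. It was miR-384-5p, with a log2 fold change of 0.50 (SE 0.15, adjusted p 0.0323), a 1.41-fold rise. This call depended on single libraries. Without WT replicate 1 its adjusted p was 0.142, without WT replicate 4 it was 0.0659, and without Zeb1_200H replicates 1, 3 or 4 it was 0.0503, 0.0929 and 0.0526, with log2 fold changes from 0.41 to 0.55. With no filter on low counts the adjusted p was 0.07. Over all alternatives it ranged from 0.00332 to 0.142, and the value was above 0 in all 14. MiR-30d-5p (-0.28, SE 0.11, adjusted p 0.103) and miR-30e-5p (-0.26, SE 0.11, adjusted p 0.132) were lower without reaching the threshold, and miR-30a-5p was at -0.05 (SE 0.10). The members' median was -0.16, beside 0.0041 over all miRNAs.

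In virgin mice, edgeR called 0 of the 6 members between Zeb1_200M and WT, with 6.49% of 678 miRNAs called. At an unadjusted p below 0.05 there were 2 members, miR-384-5p and miR-30d-5p, beside 150 of the 678 miRNAs. DESeq2 called 1 member, beside 93 of all miRNAs, and limma voom with sample quality weights called 4, beside 184. MiR-384-5p had a log2 fold change of 0.58 (SE 0.15, adjusted p 0.0531) and miR-30d-5p one of -0.40 (SE 0.15, adjusted p 0.162). The other members ranged from -0.16 (miR-30b-5p) to 0.10 (miR-30c-5p), and the median of the 6 was -0.05, beside -0.0025 over all miRNAs. Without WT replicate 1, which leaves 2 WT libraries, 4 of the 6 members were called, and so were 23.9% of 703 miRNAs. They were miR-384-5p (0.73, SE 0.09, adjusted p 0.000188), miR-30b-5p (-0.24, SE 0.07, adjusted p 0.0395), miR-30d-5p (-0.21, SE 0.07, adjusted p 0.0472) and miR-30e-5p (-0.20, SE 0.06, adjusted p 0.0498). The 3 falls were close to the threshold, and on library totals alone these members were at 0.18, 0.01 and 0.24 with all libraries, uncalled. MiR-30c-5p went from 0.10 with replicate 1 to -0.07 without it, and miR-30a-5p from 0.0033 to 0.05, neither of them called.

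Against virgin WT, Zeb1_200H had 0 of 6 members called by edgeR, beside 5.06% of 672 miRNAs. There 1 member, miR-384-5p, had an unadjusted p below 0.05, beside 131 of the 672 miRNAs. DESeq2 called 0 members, beside 72 of all miRNAs, and limma voom 1, beside 152. MiR-384-5p was at 0.47 (SE 0.14, adjusted p 0.133) and miR-30d-5p at -0.34 (SE 0.15, adjusted p 0.257), and the other members lay between -0.08 (miR-30b-5p) and 0.04 (miR-30c-5p). Without WT replicate 1 it was at 0.59 (SE 0.08, adjusted p 0.000118) and was the 1 member called, beside 21.6% of 699 miRNAs, and miR-30b-5p, miR-30c-5p, miR-30d-5p and miR-30e-5p were between -0.17 and -0.16, uncalled. Over the alternatives miR-384-5p had log2 fold changes of 0.51 to 0.98 in virgin Zeb1_200M and of 0.39 to 0.81 in virgin Zeb1_200H, above 0 in all 14 of each, with adjusted p from 6.1e-05 to 0.365 and from 0.000109 to 0.466.

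**Figure D2:**
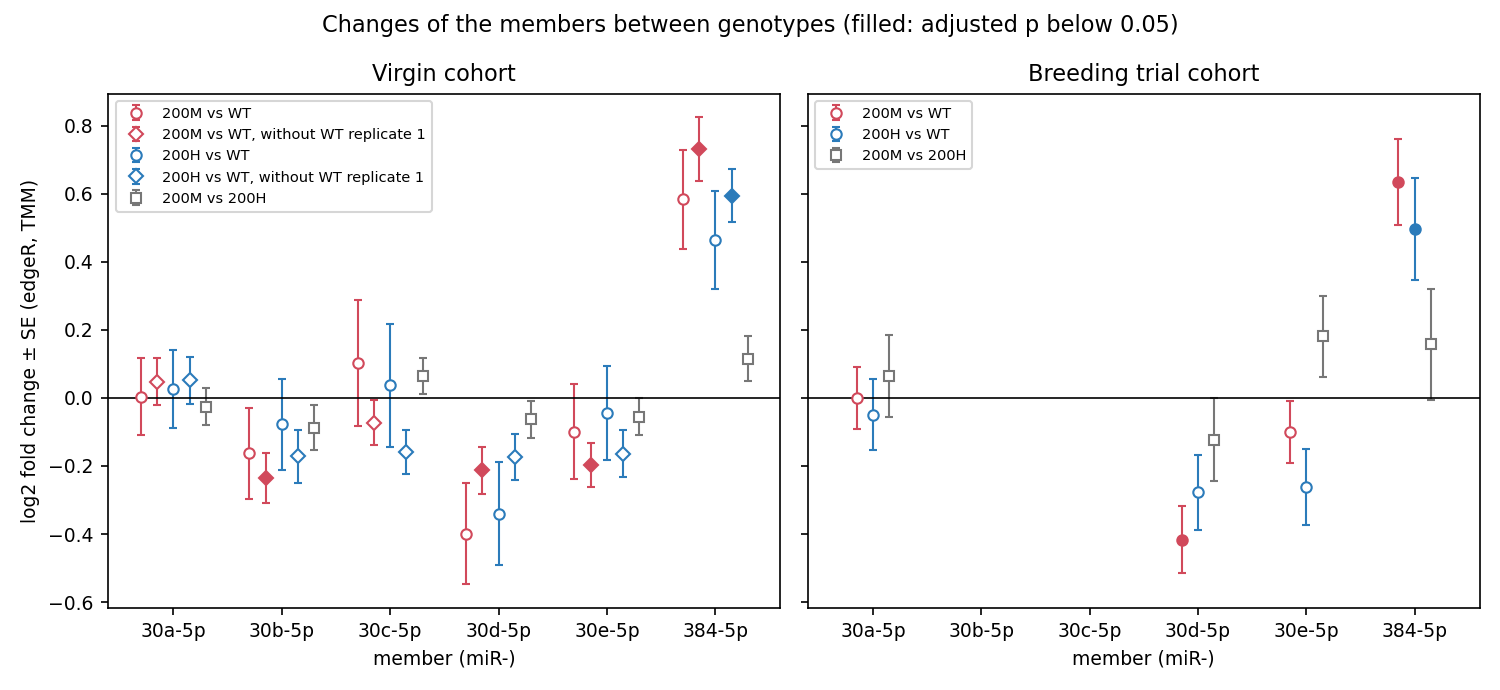
Log2 fold changes of the members (vertical axis, edgeR with TMM, bars are ± SE), for each pair of genotypes in the virgin (left) and breeding trial (right) cohorts, filled where the adjusted p is below 0.05. Virgin comparisons with WT are shown with and without WT replicate 1. Against WT, miR-384-5p is at 0.47 to 0.73 throughout, and the miR-30 members lie between -0.42 and 0.10.

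Comparisons of Zeb1_200M and of Zeb1_200H with WT share the WT libraries, so their values are not independent of each other. The direct comparison of the mutants does not use them. Between Zeb1_200M and Zeb1_200H, edgeR called 0 of 6 members in virgin mice, beside 2.22% of 675 miRNAs, and 0 of 4 in the breeding trial cohort, beside 1.09% of 274. In both cohorts 0 members had an unadjusted p below 0.05, beside 63 miRNAs in virgin mice and 40 in the breeding trial cohort. DESeq2 and limma voom called 0 members, beside 20 and 15 miRNAs in virgin mice and 3 and 5 in the breeding trial cohort. MiR-384-5p was at 0.12 (SE 0.07, adjusted p 0.684) in virgin mice and at 0.16 (SE 0.16, adjusted p 0.708) in the breeding trial cohort. The remaining values ran from -0.12 to 0.18.

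By CPM alone, 3 of the 6 members (miR-30a-5p, miR-30c-5p and miR-384-5p) had ranges that did not overlap between virgin Zeb1_200M and WT, as had 35.1% of the miRNAs tested. For virgin Zeb1_200H and WT there were 2 (miR-30a-5p and miR-384-5p), beside 33.2%, and for virgin Zeb1_200M and Zeb1_200H 2 (miR-30c-5p and miR-384-5p), beside 7.85%. In the breeding trial cohort there were 2 of 4 for Zeb1_200M and WT (miR-30a-5p and miR-384-5p), beside 42.4%, 1 for Zeb1_200H and WT (miR-384-5p), beside 29.6%, and 2 for the mutants (miR-30a-5p and miR-384-5p), beside 18.6%. All were higher in the genotype with more copies of the resistant allele, the direction in which totals alone move the median miRNA. MiR-30a-5p shows this effect of scale. By CPM it was 7942 to 8990 in breeding trial WT and 9633 to 10180 in Zeb1_200M, but after TMM scaling the ranges overlapped, at 8893 to 9804 and 8854 to 9500.

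Whether the changes from WT differed between the cohorts was tested as an interaction in edgeR. It called 0 of 485 miRNAs (0%) for Zeb1_200M, with 27 at an unadjusted p below 0.05, and 0 of 489 (0%) for Zeb1_200H, with 23. For miR-384-5p the virgin change minus the breeding trial change was 0.03 (SE 0.19, adjusted p 1) for Zeb1_200M and -0.04 (SE 0.20, adjusted p 0.972) for Zeb1_200H. For miR-30d-5p it was 0.10 (SE 0.19) and -0.07 (SE 0.20). The calls in one cohort and their absence in the other therefore do not show a difference between cohorts, and these SEs are wide beside a change of -0.42.

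The opposite strand of the same hairpin gives a second reading of a locus. For *Mir384*, the 3p strand has a seed of its own, unlike that of the family.
miR-384-3p: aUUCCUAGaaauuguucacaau
In virgin WT replicates 1, 2 and 4 miR-384-3p had 64.19, 392.9 and 424.7 CPM. Virgin Zeb1_200H replicates 1 to 4 had 659.9, 684.6, 669.3 and 666.9 CPM, and Zeb1_200M replicates 1 to 4 had 685.5, 759.1, 793.6 and 458.3 CPM. Replicate 1 of WT was far below the other WT libraries, and Zeb1_200M replicate 4 far below its group. Breeding trial WT had 630.3 to 709.6 CPM, Zeb1_200H 899.4 to 1127 and Zeb1_200M 1264 to 1631, 3 ranges that did not overlap. The log2 fold change from breeding trial WT was 0.83 in Zeb1_200M (SE 0.14, adjusted p 6.53e-05), past the threshold, and 0.39 in Zeb1_200H (SE 0.16, adjusted p 0.115), short of it, though called on library totals alone at 0.57 (adjusted p 0.0136). From virgin WT it was 0.95 (SE 0.44, adjusted p 0.249) and 1.00 (SE 0.41, adjusted p 0.236), and without WT replicate 1 it was 0.56 (SE 0.17, adjusted p 0.0419) and 0.58 (SE 0.07, adjusted p 9.76e-05). With all virgin libraries, limma voom called miR-384-3p in both mutants, at 0.62 (adjusted p 0.0194) and 0.62 (adjusted p 0.00122). The 5p to 3p ratio of *Mir384* was 7.99 in virgin WT replicate 1, 1.53 and 1.55 in the other virgin WT libraries, 1.48 to 1.6 in virgin Zeb1_200H and 1.5 to 2.39 in virgin Zeb1_200M. In the breeding trial cohort it was 1.35 ± 0.170 in WT (SD, n = 4), 1.47 ± 0.285 in Zeb1_200H (SD, n = 3) and 1.17 ± 0.133 in Zeb1_200M (SD, n = 3), with overlapping ranges.

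MiR-325-3p, from the neighbour *Mir325*, was higher in the mutants on average in both cohorts, and with all libraries edgeR called it in 1 of the 4 comparisons with WT. It had 211.1 and 204.6 CPM in virgin WT replicates 2 and 4, 81.22 in replicate 1, 310.1 to 370.5 in virgin Zeb1_200H and 290.3 to 395.7 in virgin Zeb1_200M. Against virgin WT it was at 0.79 (SE 0.21, adjusted p 0.0593) in Zeb1_200M and 0.76 (SE 0.19, adjusted p 0.0662) in Zeb1_200H, and without WT replicate 1 at 0.61 (adjusted p 0.00257) and 0.56 (adjusted p 0.000528). With all virgin libraries it was called in both mutants by DESeq2 (adjusted p 0.0104 and 0.00923), limma voom (0.000983 and 0.000483) and the common fit of 3 genotypes (0.0102 and 0.0163). In the breeding trial cohort, where it had 11 to 52 counts a library, it was called in Zeb1_200M against WT at 0.70 (SE 0.22, adjusted p 0.0168) and not in Zeb1_200H at 0.40 (SE 0.27, adjusted p 0.338). That call was lost without Zeb1_200M replicate 1, at 0.64 (adjusted p 0.0681). MiR-325-5p was at 0.43 (SE 0.20, adjusted p 0.26) and 0.33 (SE 0.20, adjusted p 0.368) against virgin WT, and without WT replicate 1 at 0.67 (adjusted p 0.00199) and 0.56 (adjusted p 0.00282). With all virgin libraries it was called in both by limma voom, at 0.65 (adjusted p 0.00154) and 0.58 (adjusted p 0.00185), and on library totals alone, at 0.84 (adjusted p 0.0185) and 0.70 (adjusted p 0.042). It had 5 to 10 counts a library in the breeding trial cohort, too few for the filter, and there its mean was 60.7 CPM in WT, 71.32 in Zeb1_200H and 59.48 in Zeb1_200M, without a rise in Zeb1_200M.

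**Figure D3:**
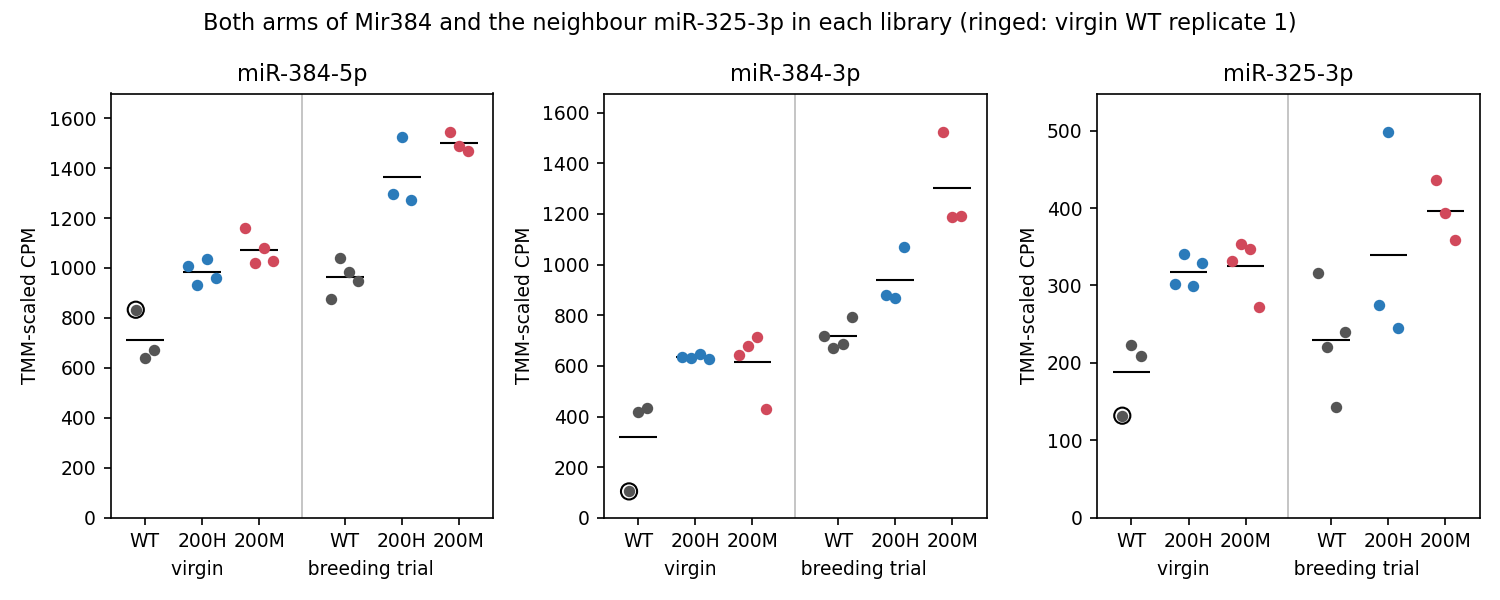
TMM-scaled CPM (vertical axes) of both strands of *Mir384* and of miR-325-3p in each library, by genotype and cohort, with a bar at the group mean and virgin WT replicate 1 ringed. No WT library reached the miR-384-5p level of any mutant library of its cohort, while in the ringed library miR-384-3p and miR-325-3p were lower than in the other WT libraries and miR-384-5p was higher.

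Of the 8 other strands of the members' hairpins, *Mir30f* included, 7 had counts and miR-30f had none. In virgin mice all 7 with counts passed the filter and edgeR called 0 of them in any of the 3 comparisons, where at an unadjusted p below 0.05 there was 1, miR-384-3p between Zeb1_200H and WT. The 5p strand dominated each miR-30 hairpin for which a ratio could be given. In virgin Zeb1_200H, the 5p to 3p ratio was 20.3 ± 1.08 for *Mir30a*, 20.4 ± 0.610 for *Mir30e*, 391 ± 33.1 for *Mir30d* and 948 ± 113 for *Mir30b* (SD, n = 4). The 3p strands of the miR-30c hairpins differ in sequence, which separates the loci that the 5p strand merges. MiR-30c-2-3p of chromosome 1 exceeded miR-30c-1-3p of chromosome 4 by 1.2 to 2.1 times in virgin WT, 2.04 to 2.76 times in Zeb1_200H and 1.76 to 2.15 times in Zeb1_200M. For *Mir30a* the ratio was lower in the mutants of the breeding trial cohort, at 16.8 to 18.9 in Zeb1_200H and 16.9 to 18.6 in Zeb1_200M against 20.8 to 26.4 in WT, with no overlap. That difference rests on 28 to 74 counts of miR-30a-3p a library, and miR-30a-3p itself was not called, at 0.39 (SE 0.17, adjusted p 0.0817) in Zeb1_200M and 0.35 (SE 0.19, adjusted p 0.215) in Zeb1_200H. On library totals alone it was called in both, at 0.63 (adjusted p 0.0054) and 0.53 (adjusted p 0.0411). In the virgin cohort the *Mir30a* ratio was 15.5 to 21.2 in WT and overlapped the 19 to 21.6 of Zeb1_200H and the 19.2 to 21.3 of Zeb1_200M. The breeding trial *Mir30e* ratio was 15.7 to 17.8 in WT, which overlapped the 12 to 16.3 of Zeb1_200H and the 17.1 to 21.5 of Zeb1_200M, while the mutants did not overlap each other.

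How the members varied together across the virgin libraries depended on WT replicate 1. Over the 11 libraries, Pearson's r of log2 TMM-scaled CPM, with 0.5 added, was 0.758 between miR-30b-5p and miR-30e-5p and 0.715 between miR-30c-5p and miR-30e-5p, but -0.722 between miR-30c-5p and miR-30d-5p. Without WT replicate 1, over 10 libraries, all 6 pairs of miR-30b-5p, miR-30c-5p, miR-30d-5p and miR-30e-5p had positive r, from 0.436 (miR-30c-5p and miR-30d-5p) to 0.886 (miR-30d-5p and miR-30e-5p). MiR-30a-5p was between -0.068 and 0.124 with these 4. MiR-384-5p then had negative r with miR-30b-5p (-0.676), miR-30c-5p (-0.473), miR-30d-5p (-0.813) and miR-30e-5p (-0.783), and 0.421 with miR-30a-5p. These values describe libraries that share genotypes and depth and carry no test.

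Likeness was read over the 495 other miRNAs with a mean of at least 50 counts. The 3 most like miR-384-5p over the 10 libraries were miR-124-3p.1 (r = 0.978) and miR-124-3p.2 (0.974), entries of the same miRNA, and miR-140-5p (0.970). With WT replicate 1 included they were miR-140-5p (0.969), miR-34c-3p (0.937) and miR-139-5p (0.930). For miR-30d-5p they were miR-191-5p (0.920), miR-375-5p (0.903) and miR-17-3p (0.900) without that library, and miR-181c-5p (0.977), miR-335-5p (0.973) and miR-375-3p (0.968) with it. MiR-30b-5p was closest to miR-375-3p (0.910), miR-335-3p (0.889) and miR-374b-5p (0.882), and with all libraries to miR-374b-5p (0.892), miR-32-5p (0.889) and miR-191-5p (0.813). MiR-30e-5p was closest to miR-191-5p (0.928), miR-32-5p (0.867) and miR-670-5p (0.864), and with all libraries to miR-23b-3p (0.896), miR-320-3p (0.885) and miR-32-5p (0.883). MiR-30c-5p was closest to miR-335-3p (0.774), miR-22-5p (0.745) and miR-377-3p (0.745), and with all libraries to miR-22-5p (0.962), miR-26a-2-3p (0.953) and miR-106a-5p (0.942). The weakest likeness was that of miR-30a-5p, with miR-23a-5p (0.752), miR-101a-5p (0.742) and miR-21a-3p (0.740), and with all libraries with miR-24-1-5p (0.653), miR-344b-3p (0.646) and miR-10a-5p (0.643). Most of these neighbours changed when the 1 library was left out.

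Lists of miRNAs enriched in cell types were read in the same libraries, since in whole tissue fewer cells of a type and less RNA per cell cannot be told apart. The lists for brain, blood, vessels and muscle hold alternative names of the same miRNA, such as miR-124-3p, miR-124-3p.1 and miR-124-3p.2. Names not read can be such alternatives, so counts of names are not counts of separate miRNAs. The endocrine list marked the tissue as pituitary, with sums of 231800 to 369000 CPM in every library and 3 of 3 names detected. Its most abundant name was miR-7a-5p, except in breeding trial WT, where it was miR-375-3p. In the breeding trial cohort its sum was lower in Zeb1_200M (246500 to 260300 CPM) than in WT (288000 to 314400 CPM), and 2 of its 3 names were called lower, with a median log2 fold change of -0.45. In breeding trial Zeb1_200H 1 of 3 was called lower (median -0.16), and in virgin mice 0 of 3 were in either mutant against WT, with medians of -0.79 (Zeb1_200M) and -0.64 (Zeb1_200H). WT replicate 1 weighs on these medians, since its endocrine sum was 599300 TMM-scaled CPM, against 285700 and 278600 in WT replicates 2 and 4 and 211900 to 267800 in the mutants. In the brain and neurohypophysis list, 9 of 10 names were read in virgin mice and 8 in mice of the breeding trial, none of them at 0 in every library. MiR-153-3p was the most abundant in WT of either cohort and in virgin Zeb1_200H, miR-124-3p.1 in virgin Zeb1_200M, and miR-124-3p in both mutants of the breeding trial cohort. The list summed to 6923, 9322 and 9712 CPM in virgin WT replicates 1, 2 and 4, 13100, 13640, 13790 and 14590 CPM in virgin Zeb1_200H, and 17850, 15750, 17410 and 13810 CPM in virgin Zeb1_200M. The breeding trial sums were 11850, 11580, 10120 and 12390 CPM in WT, 17550, 14560 and 17670 CPM in Zeb1_200H and 22370, 21730 and 22350 CPM in Zeb1_200M. The list's sum thus moved with miR-384-5p between genotypes, and its part in the change of miR-384-5p was not tested. The larger part of the rise of the breeding trial sum lay in miR-124-3p, which had a mean of 1217 CPM in breeding trial WT, 4278 in Zeb1_200H and 8004 in Zeb1_200M. Of the list's 7 names tested there, 3 were called higher and 1 lower in Zeb1_200M against WT, with a median log2 fold change of 0.38, and miR-153-3p was at 0.16 (SE 0.11, adjusted p 0.286). In breeding trial Zeb1_200H 1 of 7 was called higher (median 0.17), and against virgin WT 2 of 9 in Zeb1_200M (median 0.34) and 2 of 9 in Zeb1_200H (median 0.36). Among those 9, miR-124-3p.1 and miR-124-3p.2 count as separate names.

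The other lists moved as follows. Of the epithelial list, made of miR-200 family names, 5 of 5 were read, and its sum fell from 59980 ± 7640 CPM in virgin WT (SD, n = 3) to 12810 ± 1121 in Zeb1_200H and 6877 ± 252.8 in Zeb1_200M (SD, n = 4), and from 63020 ± 1101 (SD, n = 4) to 12800 ± 443.2 and 7654 ± 519.2 (SD, n = 3) in the breeding trial cohort, with miR-141-3p and miR-200c-3p its most abundant names. The blood list, with 4 of 7 names read and led by miR-451a, had 4973 to 9054 CPM in virgin WT, 7928 to 18090 in Zeb1_200H and 8881 to 10520 in Zeb1_200M, and 5827 to 8443, 6882 to 8878 and 7426 to 11100 in the breeding trial cohort. The vascular and stromal list, with 2 of 5 names read in virgin mice and 3 of 5 in the breeding trial, had 1867 to 2395 CPM in virgin WT, 2017 to 3697 in Zeb1_200H and 2020 to 4412 in Zeb1_200M, led by miR-143-3p in WT and miR-145a-5p in the mutants, and 7719 to 8193, 10080 to 10940 and 10940 to 12330 CPM in the breeding trial cohort, led by miR-126a-3p. The striated muscle list, with 3 of 4 and 2 of 4 names read, was near 0 throughout, at most 73.87 CPM in any library, with miR-1a-3p its most abundant name. In these lists, too, no name was at 0 in every library. After TMM scaling, 3 of 3 vascular and 2 of 3 blood names tested were called higher in breeding trial Zeb1_200M against WT, with median log2 fold changes of 0.33 and 0.57, and 0 in Zeb1_200H. Against virgin WT, 1 of 2 vascular names was called higher in Zeb1_200M and 0 in Zeb1_200H, and 0 of 4 blood names in either. Any part of the endocrine, blood, vascular or epithelial changes in those of the members was not tested.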

How the data were processed

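Small RNAs of pituitaries were sequenced by the authors, who trimmed adapters with cutadapt, filtered reads by base quality and matched their first 19 nt (virgin) or 18 nt (breeding trial) to a list of mature miRNAs, with size standards and spike-ins removed. The deposited counts are raw counts per miRNA and library. The deposited signal values are those counts over a DESeq2 size factor, and the authors' comparison columns hold log2 fold changes and p values. Raw counts alone were used here. There are 6 tables, and each of the 21 libraries is listed 2 times in them without a difference in any count. Totals were 3816917 to 10806313 counts in the virgin and 60037 to 191650 in the breeding trial cohort. No step that collapses reads to molecules was found in the methods, so floors (3 counts) and intervals cover counting error only.

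Each pair of genotypes within a cohort was fitted in edgeR 4.0.16 (R 4.3.3) with TMM, filterByExpr (minimum count 10, minimum total count 15) and the quasi-likelihood F test, with p adjusted over all miRNAs tested (Benjamini-Hochberg) and a threshold of 0.05. SE is the log2 fold change over the square root of F. The fit was tested on simulated data. The interaction of genotype and cohort was fitted on miRNAs listed in both cohorts. Alternatives were DESeq2 1.42.0, DESeq2 size factors, library totals alone, no filter, a common fit of 3 genotypes, a block for the replicate number, limma 3.58.1 voom with weights for sample quality, and each library left out in turn.

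Libraries with equal replicate numbers were compared after each was centred on its genotype's mean. Between Zeb1_200H and WT of the breeding trial cohort, each of 3 pairs correlated above 0.1 (r = 0.112, 0.100 and 0.190). Zeb1_200H replicate 4 correlated most with the WT library of its own number. Replicates 1 and 3 correlated more with a WT library of another number, so whether the numbers mark pairs is not known. With the replicate block, 42 miRNAs were called in that comparison, against 32 in the main fit, and miR-384-5p was again the 1 member called. The block fit tested 271 miRNAs, as did the fit without WT replicate 2, a library with no partner, which called 26. Libraries without a partner were left out of the block fits, whose counts thus do not show the effect of the block alone. In no other comparison did all pairs correlate. Paired by number all the same, the block gave 20 and 18 calls for virgin Zeb1_200M and Zeb1_200H against WT, 14 between the virgin mutants, 84 for breeding trial Zeb1_200M against WT and 0 between the breeding trial mutants. The virgin fits against WT tested 671 and 648 miRNAs, as did those without mutant replicate 3, which called 27 and 22. The breeding trial fit of Zeb1_200M against WT tested 270, as did that without WT replicate 4, which called 98.

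Ratios of strands are given where both had at least 10 counts in each library of a group. Names in the text are the 6 members, 8 other strands of their hairpins, both strands of the neighbour *Mir325*, the 3 miRNAs most like each member, and cell type lists. Members and lists were chosen with earlier results of these data known, and no p is given for the family as a whole.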

Additional observations from a re-analysis of the deposited data

Results flagged for a closer look

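In the groups of 4 libraries (virgin Zeb1_200H, virgin Zeb1_200M and breeding trial WT), 53 sets of levels and shares were searched for a library far from the other 3, by whether its gap to the nearest one, over the range, passed the critical value of Dixon's Q at 0.05. Chance gives about 1 in 20 such sets, and 4 were found. MiR-30b-5p had 8424 CPM in virgin Zeb1_200H replicate 3, against 7388 to 7562 CPM in the others. MiR-30c-5p had 15200 CPM in virgin Zeb1_200M replicate 3, against 13830 to 14060 CPM, and its share of the members' counts there was 30.24%, against 28.86% to 29.09%. MiR-30b-3p had 47.57 CPM in breeding trial WT replicate 3, from 4 counts, against 0 to 6.471 CPM. The gaps of the first 3 were just above that value, and that of the last was 0.864 of the range. Their causes were not tested.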

How the results depend on the processing

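Depth limits the breeding trial cohort most, where miR-384-5p had 76 to 197 counts a library, and the 2 lists of miRNAs limit comparison of shares. The numbers of miRNAs called rose in virgin Zeb1_200M against WT from 44 to 93 with DESeq2, 90 in a common fit of 3 genotypes and 184 with limma voom, fell to 20 with the replicate block, and ran from 25 to 168 with 1 library left out. For virgin Zeb1_200H against WT, 34 became 72, 67, 152 and 18, and ran from 21 to 151. The block fits of these comparisons left out mutant replicate 3 too, without which 27 (Zeb1_200M) and 22 (Zeb1_200H) were called with no block. Between the virgin mutants 15 became 5 in the common fit, and between the breeding trial mutants 3 became 5 with limma voom and 0 with the block, and ran from 3 to 5. That block fit had 2 pairs of libraries and tested 264 miRNAs in place of 274, so its 0 is not the effect of the block alone. For breeding trial Zeb1_200H against WT, 32 became 69 on library totals alone. The interaction called 5 (Zeb1_200M) and 2 (Zeb1_200H) miRNAs with no filter, of which 0 were members. Of the members and other strands, 0 were called in virgin Zeb1_200M against WT, and 1 with DESeq2, library totals alone or the common fit, 5 with limma voom, and 0 to 5 with 1 library left out. In virgin Zeb1_200H against WT, 0 became 1 on library totals alone or in the common fit, 2 with limma voom, and 0 to 2 with 1 library left out. In breeding trial Zeb1_200H against WT, 1 became 3 on library totals alone and 0 with no filter, and ran from 0 to 1. MiR-30a-5p in breeding trial Zeb1_200M against WT went from -0.0012 to 0.2313 (called) on library totals alone, which do not correct for composition. Of 422 alternative values of the members' log2 fold changes, 370 kept direction and side of the threshold, 15 passed it, 7 fell short of it, and 29 changed sign without a call. TMM scaling moved 18 of 30 levels by over 1 SD. The causes were not tested.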
